A study of Mus musculus with 3 samples.

Results

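The nuclear-encoded subunits of the mitochondrial respiratory chain were followed in cultured synovial cells of arthritic mice given CTLA-4-Ig, hIgG or vehicle. Members were the probes whose platform gene symbol starts with Ndufa, Ndufb, Ndufc, Ndufs or Ndufv and a number, with Uqcr, with Cox and a number of 4 to 8 or with Atp5, or is Sdha, Sdhb, Sdhc or Sdhd. The rule took 89 of 20690 named probes, for 84 of 19316 genes, and used no measured value. Complex I had 36 genes, complex II 4, complex III 9, complex IV 18 and complex V 17. On all 3 arrays 82 of the 84 genes were detected, while Uqcrq of complex III and Cox8c of complex IV were detected on none.

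The cells came from D1BC mice, which carry the co-stimulatory ligand B7.1 (CD80) on the DBA/1 background under a promoter and enhancer of rat type II collagen, a construct expressed in cartilage cells and in the synovial cells themselves, and which develop chronic arthritis after immunization with a low dose of bovine type II collagen. Synovial cells of the pannus, the tissue that grows over the inflamed joint surface, were cultured overnight in DMEM with serum and then kept for 48 h with CTLA-4-Ig (abatacept, a fusion of the outer part of CTLA-4 with an altered human Fc), with human IgG (hIgG), or with medium alone (vehicle). All 3 conditions thus share the transgenic strain and the immunization. The dose of both proteins was 100 μg/ml by the methods and 100 μg by the sample titles, and the 100 mg/ml of the treatment protocol in the labels goes against both. Further, neither the labels nor the methods tell which mice, or how many, each culture was made from.

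RNA of each condition went to 1 single-colour array. No difference could therefore be checked against replicates, no test was run, and precision is limited by this number of arrays. Signals are the authors' normalized values, in which the level of blank spots was subtracted and the detected spots of every array were set to a median of 25, with no log taken, and a ratio is given as log2 of one signal over another. A probe was detected when it stood 2 standard deviations above the blank spots, as did 81.4% to 84.0% of the probe spots of an array. The labels call the cells primary fibroblast-like synoviocytes (FLSs), and the study's results describe CD45- FLSs together with CD45+ macrophages among the isolated synovial cells. All 12 fibroblast markers were detected, with summed signals of 35217 with CTLA-4-Ig, 31197 with hIgG and 32754 with vehicle, and so were all 12 macrophage markers, with sums of 39688, 36790 and 34220 in the same order. The macrophage lysozyme gene Lyz2 alone gave signals of 32021, 28785 and 27289, and Vim gave 16820, 14496 and 14728 of the fibroblast sums. Such bright genes set the order of the sums. Taken gene by gene, only 4 of the 12 macrophage markers were higher with CTLA-4-Ig than with hIgG (median ratio -0.06). Compared with vehicle, 8 of them were higher (0.04). Among the fibroblast markers 9 were higher than with hIgG (0.08) and 10 higher than with vehicle (0.11). Of the 12 skeletal muscle markers 8 were detected, all under 25, and their sums were 79.5, 81.7 and 65.2. The other marker lists were also mostly dim, with 7 of 10 adipocyte, 5 of 9 T cell, 4 of 5 B cell, 5 of 6 endothelial, 5 of 6 chondrocyte and 1 of 5 erythroid genes detected, and sums on CTLA-4-Ig, hIgG and vehicle of 398, 354 and 383 for adipocyte, 112, 77.5 and 94.7 for T cell, 17.5, 15.8 and 15.1 for B cell, 64.3, 67.0 and 65.1 for endothelial, 982, 709 and 945 for chondrocyte and 11.1, 9.9 and 9.9 for erythroid genes. Single genes made up most of several of these sums: Comp (931, 664 and 904) for chondrocyte and Fabp4 (326, 282 and 313) for adipocyte. The same held for Cd28 (89.0, 57.8 and 77.3) among T cell and Kdr (54.2, 58.1 and 56.2) among endothelial genes. Fewer cells of a type and less RNA per cell cannot be told apart in such bulk RNA, and the part of the cell mixture in the ratios was not tested.

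The respiratory chain sits in the inner mitochondrial membrane. Complexes I and II pass electrons from NADH and succinate to ubiquinone, complex III passes them on to cytochrome c and complex IV to oxygen, and complex V, the ATP synthase, makes ATP from the proton gradient that complexes I, III and IV build up. Most subunits are encoded in the nucleus and the rest in mitochondrial DNA, and the factors NRF1, GABP and YY1 are known to bind promoters of many of the nuclear genes. FLSs and macrophages both shift between respiration and glycolysis when activated.

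A part of the members' promoters held a sequence feature that the rule did not use. RefSeq gave a window for 67 of the 84 genes (72 windows, GRCm38.p6), each of 300 bases with 250 before and 50 after the annotated start. The letters GCGCNTGCG, the core of the NRF1 site, were searched on both strands (CGCANGCGC on the other strand). They were found in 25 of the 72 windows, of 24 genes, and 43 genes had none. That was 34.7% of the members' windows, against 6.31% of all 32851 windows and 8.94% of the 7469 windows whose GC content lay between 53.9% and 62.1%, the quartiles of the members. The median GC content was 57.3% in the members' windows and 52.7% in all. One stretch is shown for each complex, from the brightest member whose match ends no more than 5 bases after the annotated start, with the motif in capitals. Each was chosen because it holds the letters, so that the stretches do not show how common these are in a complex.
Ndufa12, complex I, chr10:94198890-94198948, plus strand: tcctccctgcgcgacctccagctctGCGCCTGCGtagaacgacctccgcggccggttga
Sdhd, complex II, chr9:50603894-50603952, minus strand: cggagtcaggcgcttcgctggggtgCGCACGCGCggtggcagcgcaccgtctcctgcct
Uqcr11, complex III, chr10:80406797-80406851, minus strand: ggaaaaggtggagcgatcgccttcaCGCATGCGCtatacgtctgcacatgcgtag
Cox6a1, complex IV, chr5:115349087-115349145, minus strand: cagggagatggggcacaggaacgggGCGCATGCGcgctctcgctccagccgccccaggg
Atp5l, complex V, chr9:44920950-44920992, minus strand: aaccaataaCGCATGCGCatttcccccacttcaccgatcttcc

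The NRF1 letters were spread unevenly over the complexes. They were in the windows of 9 of 31 genes of complex I, 2 of 3 of complex II, 3 of 5 of complex III, 1 of 13 of complex IV and 9 of 15 of complex V. The GABP letters CCGGAAGT (ACTTCCGG on the other strand) were in 6.94% of the members' windows, 6.08% of all windows of like GC content and 3.89% of all windows. The YY1 letters AAGATGGCG (CGCCATCTT on the other strand) were in 9.72% of the members' windows, 2.25% of all windows of like GC content and 1.40% of all windows. All 7 YY1 matches lay on the strand of the gene, 5 in complex I (Ndufc1, Ndufa9, Ndufs7, Ndufs6 and Ndufs4) and 2 in complex V (Atp5j2 and Atp5j), and 6 of them began 22 to 35 bases after the annotated start. The exception was Atp5j, whose match is shown because the gene had the lowest ratio of CTLA-4-Ig over vehicle among the members.
Atp5j, complex V, chr16:84835031-84835089, minus strand: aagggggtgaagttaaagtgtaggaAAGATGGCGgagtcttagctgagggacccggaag

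**Figure D1:**
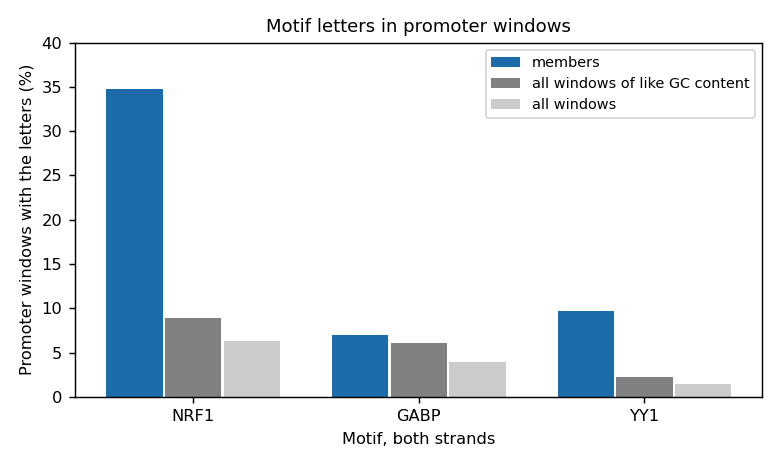
Share of promoter windows (%, vertical axis) that hold the NRF1, GABP or YY1 letters on either strand, for the 72 windows of the members (blue), the 7469 windows of like GC content (dark grey) and all 32851 windows (light grey). The members' bar stands at 34.7% for NRF1 and at 9.72% for YY1, above both others, and at 6.94% for GABP, close to the 6.08% of windows of like GC content.

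The signals were mostly bright. Of the 82 genes detected on all arrays, 75 had a mean signal of at least 25 and 69 of at least 100, whereas 8292 and 4310 of all 15625 genes did. The median over the members was 846 and over all genes 29.4. Probes differ in how well they bind, so that brightness is no measure of amount between genes. Of the 13 member probes below 25 or undetected, 4 were among the 5 that have no sequence accession in the platform annotation (Ndufa3, Ndufc1, Uqcrq and a probe of Cox6b2, with Atp5j2 as the bright one). Over all named probes 71.7% of the 922 without an accession were below 25, and 56.8% of the 19768 with one.

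**Figure D2:**
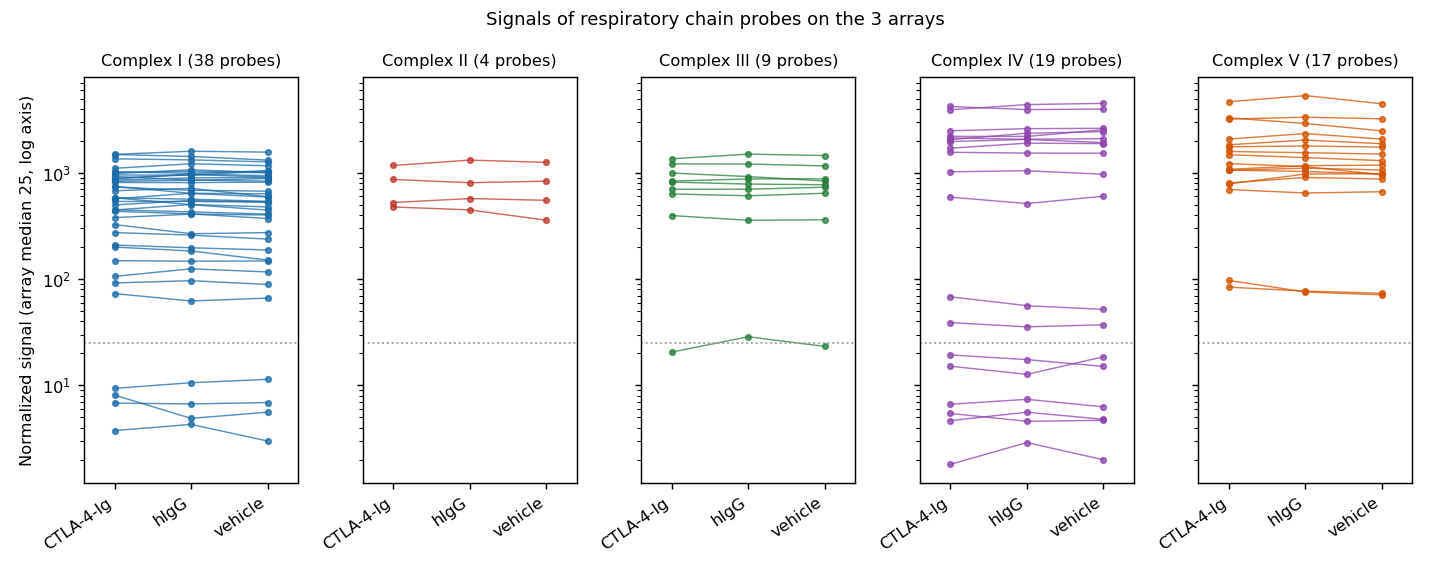
Normalized signal (log axis, array median of 25 as a dotted line) of each member probe detected on all 3 arrays, by complex, with a line joining the arrays from CTLA-4-Ig to hIgG to vehicle. The lines run nearly level in all 5 complexes, and the few dim probes lie in complexes I, III and IV.

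Between CTLA-4-Ig and hIgG, which asks what the drug does beyond an immunoglobulin, the subunits stayed close together. The median log2 ratio over the members was 0.01, against 0.09 over all genes and 0.04 over the 4310 genes whose mean signal reached 100. By complex it was 0.01 for complex I, -0.02 for II, 0.03 for III, -0.03 for IV and -0.03 for V. At a threshold of 0.32 on the log2 scale, 1 of 82 members was higher (Atp5g1) and 1 was lower (Cox7b2), whereas 14.3% of all genes were higher and 3.99% were lower. Once each ratio was taken relative to the median of all genes, 0 members were higher and 5 lower, against 8.55% and 7.15% of all genes taken the same way. Among the 69 members with a signal of at least 100 no gene reached this threshold in either direction, where 4.71% of all genes that bright were higher and 2.23% were lower. No member differed 2-fold, as 0.627% of all genes did.

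CTLA-4-Ig over vehicle had the same small median and more genes on the high side. The median was 0.02 over the members, 0.11 over all genes and 0.06 over the genes with a signal of at least 100, and by complex 0.02 for I, -0.01 for II, 0.02 for III, -0.00 for IV and 0.06 for V. Past 0.32 on the log2 scale 10 of 82 members were higher and 0 were lower, against 18.1% higher and 3.92% lower of all genes. Relative to the median of all genes 1 was higher and 2 were lower, against 9.96% and 7.75% of all genes taken the same way. Of the 69 bright members 6 were higher (Ndufa7, Ndufb2, Ndufs8, Sdhb, Atp5b and Atp5md) and 0 lower, against 7.73% and 2.23% of all genes that bright, so that the share on the high side was near that background. Again no member was 2-fold apart, as 0.8% of all genes were.

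The controls also differed from each other. For hIgG over vehicle the median was 0.05 over the members and 0.03 over all genes, and by complex 0.05 for I, 0.06 for II, 0.03 for III, 0.00 for IV and 0.07 for V. Past the same threshold 3 members were higher (Ndufc1, Sdhb and Cox7b2) and 0 lower, against 7.92% and 6.32% of all genes, and of the bright members 1 was higher and 0 lower, against 2.58% in each direction. Relative to the median of all genes 2 were higher and 0 lower, against 6.63% and 7.37% of all genes, and Sdhb then fell short of the threshold. No member was 2-fold apart, as 0.486% of all genes were. The 3 comparisons share arrays pairwise, so that a signal that is high or low on 1 array enters a pair of them. In all, 11 of the 82 members passed 0.32 in at least 1 comparison and 71 in none, whereas 33.9% of all genes passed in at least 1. Of the 69 bright members 6 did, against 15.8% of all genes that bright. Over the bright members the log2 ratios had an SD of 0.13 against hIgG, 0.16 against vehicle and 0.10 between the controls, and over all genes that bright 0.18, 0.19 and 0.16.

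**Figure D3:**
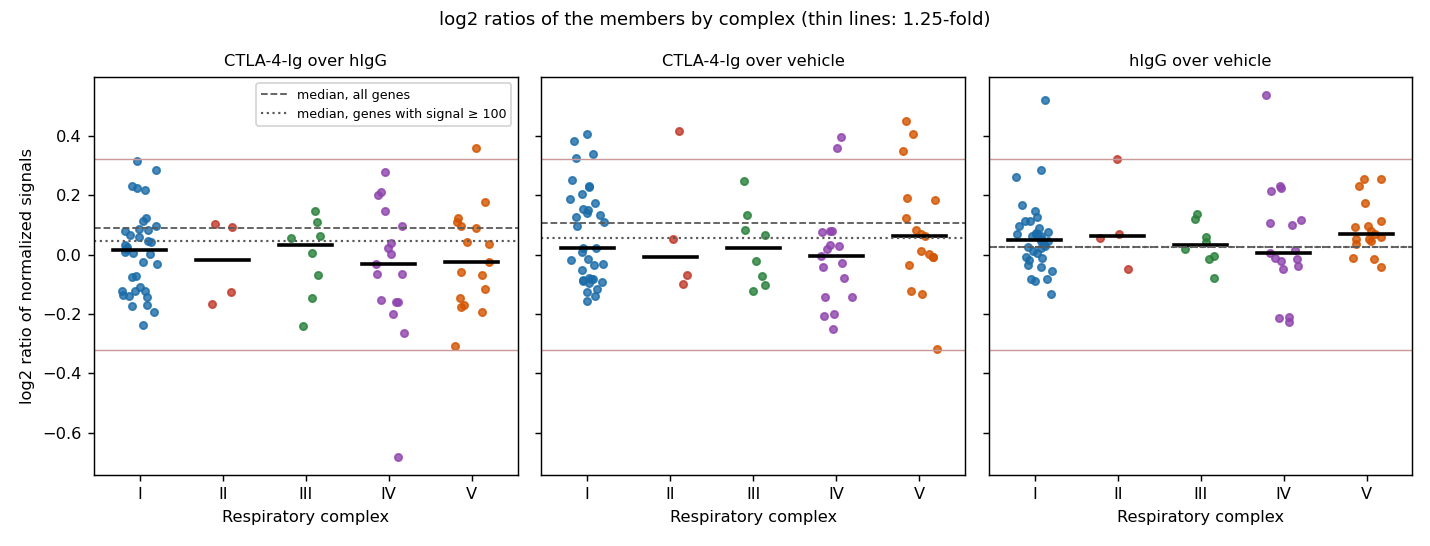
Log2 ratio (vertical axis) of each member in the 3 comparisons, by complex, with the median of each complex as a black bar, the median of all genes dashed, that of genes with a signal of at least 100 dotted and 0.32 either way as thin lines. The black bars stay between -0.03 and 0.07, and 10 points lie above the upper line for CTLA-4-Ig over vehicle.

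The medians of all genes moved with brightness. For CTLA-4-Ig over hIgG the median over all genes was 0.13 at a mean signal under 25, 0.09 at 25 to 100, 0.06 at 100 to 300, 0.03 at 300 to 1000 and 0.02 above 1000, and for CTLA-4-Ig over vehicle 0.16, 0.09, 0.07, 0.04 and 0.06 in the same bins. From a signal of 25 upward the members' medians for CTLA-4-Ig over hIgG also fell with brightness, over a wider range. The 7 members under 25 lay apart from this. For CTLA-4-Ig over hIgG their medians were -0.15 for the 7 under 25, 0.25 for the 6 at 25 to 100, 0.08 for the 7 at 100 to 300, 0.01 for the 31 at 300 to 1000 and -0.03 for the 31 above 1000. Over vehicle they were -0.00, 0.21, 0.15, -0.01 and 0.01, so that the members from 25 to 300 lay above all genes of like signal and the brighter ones below, in bins of few genes. Some of these genes were binned by the average of unlike probes. Ndufa13 (probes of 1552 and 6.20) and Ndufb5 (92.6 and 10.5) fell at 25 to 100, and Uqcrc2 (712 and 24.2) at 100 to 300. Most members are bright, and so the background of genes with a signal of at least 100 is the nearer one. The signal of 36 of the 82 members was highest on the CTLA-4-Ig array, of 30 on hIgG and of 16 on vehicle, while all genes split into 56.5% highest under CTLA-4-Ig, 23.0% under hIgG and 20.5% under vehicle.

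**Figure D4:**
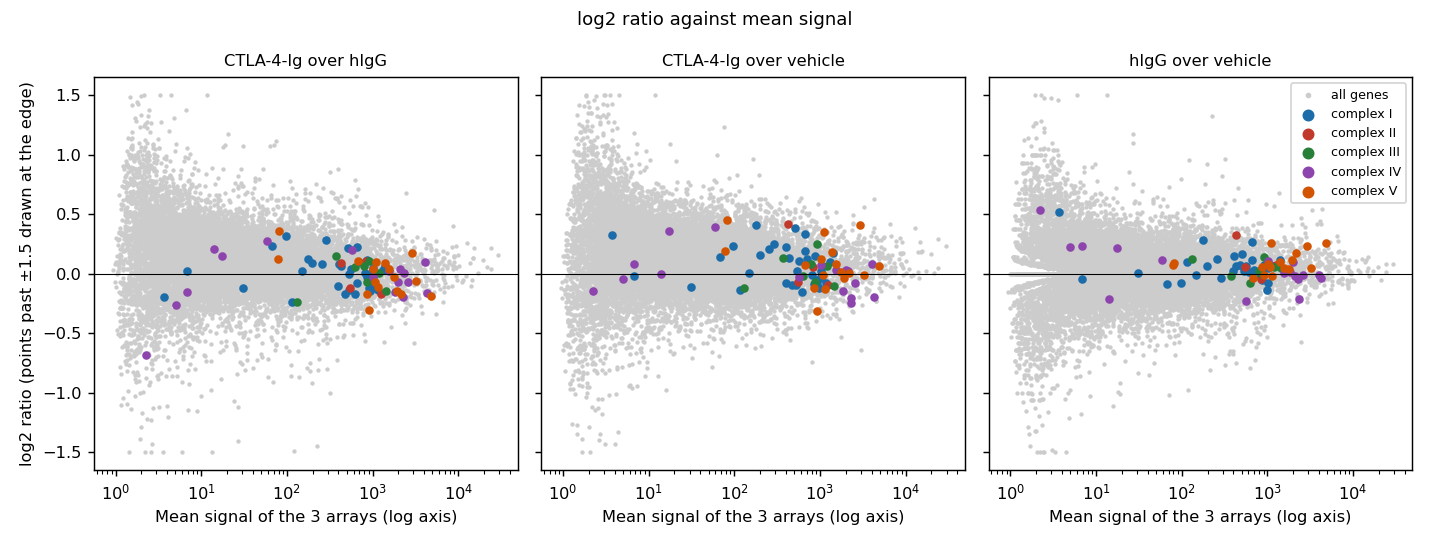
Log2 ratio (vertical axis) against the mean signal of the 3 arrays (log axis) for all 15625 genes (grey) and the members (coloured by complex), in the 3 comparisons. Most members lie to the right, where the grey points scatter least, and the grey cloud of dim genes sits higher in both comparisons of CTLA-4-Ig.

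Complex I takes electrons from NADH. Its core subunits hold the flavin and the iron-sulfur clusters that carry them. Among these, Ndufs8, an iron-sulfur protein near the ubiquinone site, had signals of 200 with CTLA-4-Ig, 184 with hIgG and 151 with vehicle. It was 0.12 above hIgG and 0.41 above vehicle on the log2 scale, and the hIgG array was itself 0.28 above vehicle. With a background correction by normexp, which reads the scanner's background column, both ratios over vehicle turned to -0.07. That column followed the spot signal itself (correlation of 0.990 to 0.997 on the log2 scale). The turns under normexp given here and below therefore cannot tell whether a deposited ratio was well measured. Ndufv1, which binds NADH and the flavin, gave 326, 267 and 274 on CTLA-4-Ig, hIgG and vehicle, so that CTLA-4-Ig was above both controls (0.29 and 0.25) and the controls lay close together (-0.04). Ndufs7, which carries the last cluster before ubiquinone, gave 274, 260 and 238, and Ndufs1, the large iron-sulfur protein, gave 209, 197 and 188. Both followed the same order, with CTLA-4-Ig on top and vehicle lowest. Ndufs3 gave 538, 538 and 530, nearly level on the 3 arrays. Ndufv2, the iron-sulfur partner of Ndufv1, went the other way, with 1105 with CTLA-4-Ig, 1217 with hIgG and 1167 with vehicle (-0.14 against hIgG and -0.08 against vehicle). The 6 core genes had median ratios for CTLA-4-Ig of 0.08 against hIgG and 0.18 against vehicle, with 0.06 between the controls, and the 28 accessory genes 0.01, 0.00 and 0.04. Only 6 genes carry the first set of medians. The core genes were also dimmer, with a median signal of 273 against 662 for the accessory genes. Ndufs1, Ndufs7, Ndufs8 and Ndufv1 are among the 7 members at a signal of 100 to 300 described above, so that the 2 observations are not separate. All genes at that signal had medians of 0.06 against hIgG and 0.07 against vehicle, with 0.02 between the controls.

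The accessory subunits surround the core and are needed for assembly and stability. Ndufb2, in the membrane arm, had signals of 582, 501 and 447 on CTLA-4-Ig, hIgG and vehicle, which put CTLA-4-Ig 0.22 above hIgG and 0.38 above vehicle. Ndufa7 gave 749, 641 and 593, with ratios of 0.22 and 0.34. In both genes CTLA-4-Ig was the highest array, and hIgG was above vehicle by 0.17 in Ndufb2 and 0.11 in Ndufa7. Ndufb8 of the membrane arm showed another order, with 679 with CTLA-4-Ig, 715 with hIgG and 596 with vehicle. On the low side Ndufb3, also of the membrane arm, gave 571, 642 and 636 (-0.17 against hIgG and -0.16 against vehicle, which became 0.08 against vehicle under normexp), and Ndufb4 gave 447, 504 and 478. Ndufs4, Ndufs5 and Ndufs6, which are accessory in spite of their symbols, had CTLA-4-Ig signals of 499, 884 and 882, each below both controls (549, 976 and 961 on hIgG, and 532, 940 and 914 on vehicle). Ndufa12 gave 1355, 1324 and 1268 and Ndufa2 1487, 1426 and 1318, both with CTLA-4-Ig highest, although Ndufa2 over vehicle turned to -3.48 under normexp. Ndufa1 gave 955, 949 and 1042, with vehicle above both proteins. By gene, the largest difference in the complex was in Ndufc1, at 3.76, 4.3 and 3.0, where hIgG over vehicle was 0.52 at signals far below the array median. The dim probe of Ndufa13, given below, differed by more (0.73 for CTLA-4-Ig over hIgG).

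Not every symbol in the Nduf group stood for a settled subunit of complex I. Ndufa4, first placed in complex I and later recognised as a part of complex IV, gave 1022, 990 and 1048 on CTLA-4-Ig, hIgG and vehicle. Its relative Ndufa4l2, known as a target of hypoxia signalling, gave 149, 147 and 148, with ratios of 0.02, 0.01 and -0.01. Both were within 0.08 in every comparison. Ndufa11b had 106, 125 and 117, with CTLA-4-Ig 0.24 below hIgG (0.01 under normexp). Ndufa13, an accessory subunit also known as GRIM-19, had the highest gene ratio of CTLA-4-Ig over hIgG in the complex, 0.31, but it came from a dim probe with signals of 8.11, 4.9 and 5.6, while its bright probe gave 1492, 1597 and 1568, a ratio of -0.10. Ndufb5, with a bright and a dim probe too, gave 92.1, 96.7 and 89.1 on one and 9.39, 10.6 and 11.4 on the other.

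Complex II is succinate dehydrogenase, which links the tricarboxylic acid cycle to the chain. All 4 of its genes are on the array. In both comparisons of CTLA-4-Ig the catalytic subunits were on the high side and the membrane anchors on the low side, and between the controls Sdhb and both anchors were higher on hIgG and Sdha was lower. Sdha, the flavoprotein, gave 867 with CTLA-4-Ig, 808 with hIgG and 836 with vehicle (0.10 above hIgG and 0.05 above vehicle), with CTLA-4-Ig the highest array. Sdhb, the iron-sulfur subunit, gave 478, 448 and 358, so that CTLA-4-Ig was 0.09 above hIgG and 0.41 above vehicle, while hIgG was 0.32 above vehicle. Under normexp the ratios over vehicle turned to -1.32 and -1.36. For Sdhb as deposited it was the vehicle array that stood apart, and both proteins lay close together. Sdhc, an anchor that helps to bind ubiquinone, gave 526, 573 and 552, and Sdhd, the other anchor, 1174, 1318 and 1256. In both anchors CTLA-4-Ig was lowest and hIgG highest, with ratios against hIgG of -0.12 and -0.17, the second of which turned to 0.20 under normexp. These are 2 genes on each side, with 1 array per condition.

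Complex III passes electrons from ubiquinol to cytochrome c. Uqcrc1, a core protein of the matrix side, had 996 with CTLA-4-Ig, 922 with hIgG and 839 with vehicle, which put CTLA-4-Ig 0.11 above hIgG and 0.25 above vehicle, although the ratio over vehicle turned to -2.60 under normexp. Uqcrfs1, the Rieske iron-sulfur protein, gave 396, 358 and 362 (0.15 and 0.13). Both had CTLA-4-Ig highest, but in Uqcrfs1 the controls were level (-0.02). Uqcrb, an accessory subunit that supports ubiquinone binding, gave 1356, 1500 and 1456, lowest on CTLA-4-Ig (-0.15 and -0.10). Uqcr11 gave 1216, 1211 and 1163 and Uqcr10 gave 837, 877 and 879, within 0.07 of the controls on the log2 scale. Uqcrc2, the other core protein, had a gene ratio of -0.24 against hIgG that came from a probe of 20.6, 28.7 and 23.3, whereas its bright probe gave 701, 702 and 733. Uqcrh, the hinge protein, gave 818, 784 and 773, and Uqcrh-ps1, a copy of it by name, 633, 609 and 643. Signals of such near-identical copies can cross over between probes and are uncertain.

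Complex IV, cytochrome c oxidase, hands electrons to oxygen. Its 10 common nuclear subunits had median ratios for CTLA-4-Ig of -0.05 against hIgG and -0.03 against vehicle, with -0.01 between the controls. In the same order 1, 0 and 2 of them lay above the median of all genes. Of the 528 genes with a signal of at least 1000, as all 10 had, 163, 194 and 282 did. Cox6a1, a subunit that takes part in regulation, gave 3924 with CTLA-4-Ig, 4387 with hIgG and 4508 with vehicle, and Cox7a2 gave 2053, 2358 and 2440. In both CTLA-4-Ig was the lowest array, by 0.16 and 0.20 below hIgG and by 0.20 and 0.25 below vehicle. Under normexp all 4 of these turned, to 0.96 and 0.32 over hIgG and 1.03 and 2.05 over vehicle. Cox7c, a small membrane subunit, gave 1706, 1903 and 1885, with CTLA-4-Ig lowest again. Cox6c gave 2204, 2201 and 2544, so that vehicle stood above both proteins by about the same amount (-0.21 each). Cox4i1, the regulatory subunit that binds ATP, gave 4211, 3939 and 3982, highest on CTLA-4-Ig by 0.10 over hIgG and 0.08 over vehicle. Cox5a and Cox5b, which sit next to it, gave 1561, 1535 and 1530, and 1023, 1046 and 972. Cox6b1, on the side of cytochrome c, gave 2487, 2604 and 2624, Cox7b gave 1970, 2062 and 1926, and Cox8a 2128, 2070 and 2098. These were within 0.11 in every comparison. Cox7a2l, which joins complexes III and IV in supercomplexes, gave 591, 514 and 602, so that hIgG was the array that stood apart (0.20 for CTLA-4-Ig over hIgG, -0.03 over vehicle).

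Several subunits of complex IV have isoforms that are restricted to certain tissues. Cox4i2, found mainly in lung and known to respond to low oxygen, was the brightest of them by gene, with 68.2 with CTLA-4-Ig, 56.3 with hIgG and 51.9 with vehicle. CTLA-4-Ig was 0.28 above hIgG and 0.39 above vehicle, in the same order as Cox7a1, an isoform of heart and skeletal muscle, which gave 19.4, 17.5 and 15.1 (0.15 and 0.36). Under normexp the ratios over vehicle turned to -0.030 in Cox4i2 and -0.011 in Cox7a1, and those over hIgG came to -0.00 in each. The other muscle isoforms, Cox6a2 at 6.65, 7.4 and 6.3 and Cox8b at 4.66, 5.6 and 4.8, were highest on hIgG. The testis isoforms were also dim. Cox7b2 gave 1.81, 2.9 and 2.0, near the detection limit, and its ratio of -0.68 against hIgG was the lowest of all members. Cox6b2 had 3 probes, with 39.0, 35.6 and 37.2 on the brightest, 15.2, 12.7 and 18.6 on the next and 5.45, 4.6 and 4.7 on the dimmest, and for CTLA-4-Ig over vehicle the next one fell on the other side (-0.29) of the brightest (0.07) and the dimmest (0.21). Cox8c, the third testis isoform, was not detected on any array. Summed signals of the muscle markers were, as given above, higher on CTLA-4-Ig and hIgG than on vehicle, and their part in the isoforms was not tested.

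**Figure D5:**
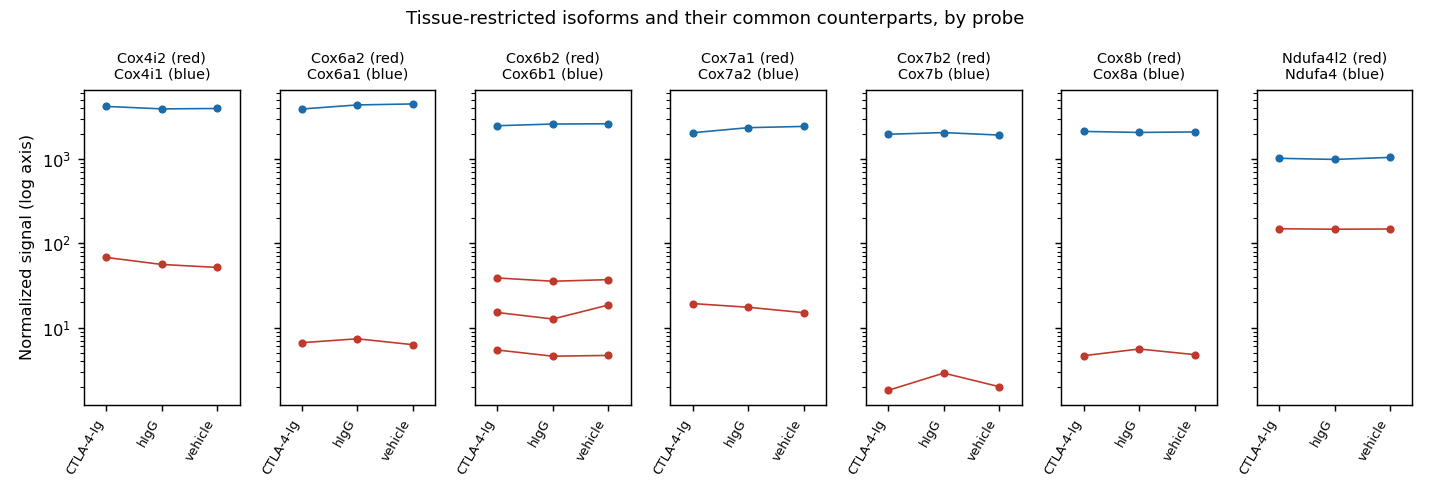
Normalized signal (log axis) on each array, CTLA-4-Ig at the left and vehicle at the right, of each probe of 7 tissue-restricted isoforms or relatives (red) and of their common counterparts (blue). The blue lines lie near or above 1000 and run nearly level, while the red ones, except Ndufa4l2 near 149, lie at 68.2 or below. Amounts of different probes are not compared.

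Complex V is the ATP synthase. In its catalytic F1 head, Atp5b, the beta subunit that forms ATP, had signals of 3292 with CTLA-4-Ig, 2914 with hIgG and 2483 with vehicle. CTLA-4-Ig was 0.18 above hIgG and 0.41 above vehicle, and hIgG lay 0.23 above vehicle, so that the 3 arrays followed each other in steps of like size. The alpha subunit Atp5a1, which pairs with it, had another order, with 803, 906 and 873 (-0.17 and -0.12). The gamma subunit Atp5c1, the rotor shaft, gave 1838, 2035 and 1881. The delta subunit Atp5d gave 1759, 1790 and 1746, and the epsilon subunit Atp5e 1480, 1392 and 1303. Over these 5 genes the median ratios for CTLA-4-Ig were -0.03 against hIgG and 0.01 against vehicle, with 0.10 between the controls, and the alpha and beta genes lay on opposite sides of them in both comparisons of CTLA-4-Ig.

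The c ring is the part of the rotor in the membrane, and its 3 genes encode the same mature protein with different import signals. Atp5g1 gave 97.1 with CTLA-4-Ig, 75.8 with hIgG and 71.1 with vehicle, the highest ratios of the members with a signal of at least 25, at 0.36 over hIgG and 0.45 over vehicle. That was 1.28-fold and 1.37-fold, with the controls 0.09 apart. Atp5g2 gave 1589, 1549 and 1501, nearly level. Atp5g3 gave 4670, 5335 and 4468, so that hIgG was the highest array, 0.26 above vehicle, and CTLA-4-Ig was 0.19 below it. Under normexp these turned to -0.74 and 0.08. The genes thus did not share an order.

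The peripheral stalk holds the head still against the rotor. Atp5j, the coupling factor F6, had 788 with CTLA-4-Ig, 975 with hIgG and 982 with vehicle. It was the lowest member with a signal of at least 25 in both comparisons, at -0.31 against hIgG and -0.32 against vehicle, just short of the threshold, as Sdhb was just past it between the controls, and the controls were level (-0.01). Atp5pb, the b subunit, gave 2081, 2343 and 2076, highest on hIgG. Atp5h, the d subunit, gave 1057, 1107 and 1064, and Atp5o, which joins the stalk to the head, 84.0, 77.2 and 73.6. Of the remaining membrane subunits, Atp5md, a small protein linked to the pairing of synthases, gave 1222, 1144 and 959, with CTLA-4-Ig 0.35 and hIgG 0.26 above vehicle. As in Sdhb, vehicle was the array apart. Atp5k and Atp5l, which help to form dimers, gave 697, 646 and 665, and 3204, 3340 and 3224. Atp5j2 gave 1061, 1030 and 975 and Atp5mpl 1079, 1169 and 1182, all within 0.13 in every comparison.

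Members with and without the NRF1 letters in their promoters had close medians. For CTLA-4-Ig over hIgG the median was -0.04 over the 24 genes with them and 0.03 over the 43 without. For CTLA-4-Ig over vehicle it was 0.03 in each set, and for hIgG over vehicle 0.06 with and 0.04 without. Over the 7 genes with the YY1 letters the median ratio of CTLA-4-Ig was -0.12 against hIgG and 0.12 against vehicle, and over the 60 without them it was 0.02 and 0.03. Between the controls the medians were 0.08 with and 0.05 without.

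Other genes of the pathway were taken from lists. Assembly factors, which build the complexes without remaining in them, were measured for all 5. Complex I had 15, with median ratios for CTLA-4-Ig of 0.05 against hIgG and 0.10 against vehicle and of 0.05 between the controls, complex II had 3 (0.08, 0.11 and 0.03), complex III 6 (-0.01, 0.20 and 0.07), complex IV 19 (-0.04, 0.07 and 0.09) and complex V 4 (0.01, 0.21 and 0.24). Past 0.32 for CTLA-4-Ig over vehicle, 0 of the 15 were higher and 1 lower, 0 of the 3 passed either way, 1 of the 6 was higher, 2 of the 19 were higher and 3 lower, and 0 of the 4 passed. Of all genes 18.1% were higher and 3.92% lower. Over hIgG only complex III had any, 1 higher and 1 lower, against 14.3% and 3.99%. For hIgG over vehicle 2 of the 15 were lower, and 1 of the 6 (Lyrm7, 1.54, at signals of 2.9 and 1) and 2 of the 19 higher, against 7.92% higher and 6.32% lower of all genes. Surf1, needed to build complex IV, gave 147 with CTLA-4-Ig, 178 with hIgG and 190 with vehicle, and Cox19, a copper-handling factor of the same complex, 83.8, 104 and 106. Both were lowest on CTLA-4-Ig. Ndufaf1, an assembly factor of complex I, gave 105, 88.0 and 93.8, and Ttc19 of complex III 63.7, 50.1 and 51.1, both highest on CTLA-4-Ig. Tmem70, which is counted in the lists of both complex I and complex V, gave 145, 144 and 117, with vehicle apart as in Atp5md. Of 2 subunits whose symbols the rule leaves out, cytochrome c1 (Cyc1) gave 334, 305 and 256. It stepped down in the order of Atp5b, at 0.13 over hIgG and 0.38 over vehicle. The other, the acyl carrier protein Ndufab1 of complex I, was dim at 13.7, 18.5 and 20.7. No probe matched any of the 13 mitochondrially encoded subunits by name, and these are not analysed here.

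Neighbouring pathways of the chain were read in the same way. The 20 measured genes of electron carriers and coenzyme Q synthesis had medians of 0.04, 0.07 and 0.08 in the 3 comparisons, CTLA-4-Ig over hIgG first. Dhodh, which feeds electrons from pyrimidine synthesis to ubiquinone, gave 93.1 with CTLA-4-Ig, 77.5 with hIgG and 64.9 with vehicle, while Coq2, an enzyme of coenzyme Q synthesis, gave 137, 159 and 129. The 17 genes of the tricarboxylic acid cycle had medians of 0.08, 0.14 and 0.07. Past 0.32 for CTLA-4-Ig over vehicle 5 were higher (Idh3a, Idh3g, Sucla2, Fh1 and Dlat) and 0 lower, against 18.1% and 3.92% of all genes. All of the 5 but Sucla2 (mean signal of 61.6) had a signal of at least 100, as 15 of the 17 had. Of all genes that bright 7.73% were higher and 2.23% lower. Sucla2, the ATP-forming subunit of succinyl-CoA ligase, gave 77.8, 61.3 and 45.7 (0.34 over hIgG and 0.77 over vehicle), and Idh3g of isocitrate dehydrogenase 795, 643 and 539 (0.31 and 0.56). Suclg1, the partner of Sucla2, gave 814, 880 and 949, in the opposite order.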

How the data were processed

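Cy5-labelled RNA was hybridized to 1 mouse oligo array per condition. The deposited data are the scanner's spot intensity files and the authors' normalized signals, in which the level of blank spots was subtracted and each array scaled to a median of 25. The files name no genome build. Log2 ratios were computed from the deposited signals (numpy 2.4.6 and pandas 2.3.3 under Python 3.11.15), a gene with several probes taking the mean of their log2 signals. All 3 samples were mapped by their labelled treatment, with 0 columns of per-sample values unused. Signals recomputed from the intensities (blank mean after dropping 5% at each end) matched the deposited table in detection, with all but 1 probe within 0.06 on each array. Positive control spots, 24 of a kind, varied within an array by 6.17% to 13.3% (SD over mean). Probe names are those of the platform annotation, updated to RefSeq symbols by gene identifier (20556 probes) or accession (9), and 125 kept the platform symbol. Promoters came from RefSeq GRCm38.p6. The alternatives (limma 3.58.1, R 4.3.3) were quantile normalization, cyclic loess, other scalings, normexp with an offset of 50, recomputed signals, signal minimums, a floor of 1, the brightest probe, and members without isoforms and symbols that name no subunit. The counting was tested on simulated data. Figures were drawn with matplotlib 3.10.9. The members, the lists and the rule for named genes were chosen with earlier results of these data known. The rule named per complex the 2 brightest genes, the highest and the lowest ratio of each comparison at a mean signal of at least 25, genes 2-fold apart, isoforms with their counterparts, all of complex II, probes that disagree, symbols that name no subunit, and up to 2 highest and 2 lowest of each other list for CTLA-4-Ig over hIgG. Other genes were named after their values were seen, to account for every role. The YY1 letters, the windows of like GC content and the medians by signal were added after the data were seen.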

Additional observations from a re-analysis of the deposited data

How the results depend on the processing

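No paired analysis was possible because there was only 1 array for every condition, and no replicate could be left out. Of 198 list medians relative to all genes, 17 went to the other side of the all-gene median, 11 of them under normexp, 3 under cyclic loess, 2 with a floor of 1 and 1 with the brightest probe. Shifts were set against 0.13, the SD of the members' log2 ratios between the controls, which is a spread of single genes and larger than nearly all of the medians, so that few could pass it. The 3 that did were all under normexp, which reads the background column: complex II came to 0.12 for CTLA-4-Ig over hIgG and -0.23 for hIgG over vehicle, and complex III to -0.22 for CTLA-4-Ig over vehicle. That column correlated with the spot signal at 0.990 to 0.997 on the log2 scale. It thus followed the signal, and turns under normexp cannot tell whether a deposited ratio was well measured. Of 1071 ratios of named genes 962 shifted by less than 0.13. Ratios of at least 0.13 changed sign 27 times under normexp and 2 times with the brightest probe, both in Ndufa13 (-0.10 over hIgG and -0.07 over vehicle). Of those past 0.32, 5 turned, under normexp: Cox4i2 (-0.030), Cox7a1 (-0.011), Ndufs8 (-0.070) and Sdhb (-1.32) for CTLA-4-Ig over vehicle, and Sdhb (-1.36) for hIgG over vehicle.

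Counts past the threshold of 0.32 depended on the setting. For CTLA-4-Ig over hIgG, 1 member higher became 4 at 1.2-fold, 0 at 1.5-fold, after centring on all genes, under quantile normalization and under cyclic loess, and 11 under normexp, and 1 lower became 3 at 1.2-fold, 5 after centring, 4 under quantile normalization and under cyclic loess, 12 under normexp and 0 among genes with a signal of at least 25. For CTLA-4-Ig over vehicle, 10 higher became 0 at 1.5-fold, 1 after centring, 5 under quantile normalization and under cyclic loess and 22 under normexp, and 0 lower became 1 at 1.2-fold, 2 after centring, under quantile normalization and under cyclic loess, and 21 under normexp. For hIgG over vehicle, 3 higher became 0 at 1.5-fold, 1 among genes with a signal of at least 25 and 17 under normexp, and 0 lower became 16 under normexp. Against these counts, all genes gave, for CTLA-4-Ig over hIgG, 20.1% higher and 5.72% lower at 1.2-fold, 7.39% and 7.61% under quantile normalization, 7.28% and 7.65% under cyclic loess and 2.4% and 2.25% under normexp. At 1.5-fold they gave 3.40% and 1.13%, and among genes with a signal of at least 25, 6.48% and 2.19%. The shares after centring are given above. For CTLA-4-Ig over vehicle all genes gave 25.04% and 5.65% at 1.2-fold, 4.44% and 0.992% at 1.5-fold, 8.82% and 8.47% under quantile normalization, 8.61% and 8.60% under cyclic loess and 4.97% and 5.14% under normexp. For hIgG over vehicle they gave 1.94% and 1.6% at 1.5-fold, 2.89% each way at a signal of at least 25, and 4.15% and 4.45% under normexp. Counts not named here stayed within 1.5 times. The cause was not tested. On the strand of the gene alone the NRF1 letters were in 16.7% and the GABP letters in 1.39% of the members' windows, against 3.72% and 2.11% of all windows.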

Other observations

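Lists outside the chain were read in the same way. Of 77 mitochondrial ribosomal proteins on the array, which translate the mitochondrially encoded subunits, 75 were measured, with median log2 ratios for CTLA-4-Ig of 0.00 against hIgG and 0.04 against vehicle and of 0.06 between the controls. Mrpl9 gave 93.1 with CTLA-4-Ig, 72.3 with hIgG and 68.5 with vehicle, and Mrpl45 gave 214, 295 and 269. The 59 cytosolic ribosomal proteins had medians of 0.04, 0.04 and 0.01. The 17 regulators of mitochondrial biogenesis had medians of 0.07, 0.06 and -0.04. Among the regulators Pparg, a nuclear receptor of lipid metabolism, gave 40.5, 25.2 and 37.8, with hIgG the lowest array, and Esrra, a receptor that acts on respiratory chain genes, gave 60.6, 62.4 and 61.9.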
